A study of Mus musculus with 4 samples.

Results

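The genes described here build and organize the mitotic chromosome. They are the 8 genes for the subunits of the condensin complexes (Smc2, Smc4, Ncapd2, Ncapg, Ncaph, Ncapd3, Ncapg2 and Ncaph2), the topoisomerase gene Top2a and the chromosome surface gene Mki67. They were taken by symbol, as 10 of the 24063 gene symbols in the transcript tables. For each, the RefSeq transcript with the highest count total across the 4 libraries was used.

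RNA was sequenced from mouse lung endothelial cells (ECs) collected with magnetic beads against CD31, a surface protein of ECs. The mice were C57BL6, given as C57BL6J in the design text, 8 weeks old and labelled male, with no genetic modification named. One group had unilateral pneumonectomy (PNX), the surgical removal of the left lung, and its ECs were collected 7 days later, whereas the sham-operated group had thoracotomy without PNX. Each group had 2 libraries, each pooled from 2 mice, so every spread given here is between 2 pools. Totals ranged from 41367438 to 50952879 counts per library with 1 transcript taken for each symbol. Normalized counts given below are scaled to a common library size of 46082031.

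The libraries went against their label of sex. The Y chromosome genes Ddx3y, Eif2s3y, Kdm5d and Uty were at 0 counts in all 4 libraries, where 3 counts would be 0.0589 to 0.0725 CPM (counts scaled to the library total). Xist, the RNA of the inactive X chromosome, had 29890 to 36875 counts per library. The EC genes Pecam1 and Cdh5 were abundant in every library, with 81320 to 100203 and 85472 to 121244 counts. Pecam1 did not pass the test between groups (log2 fold change -0.01, edgeR adjusted p = 0.636), whereas Cdh5 was lower after PNX (log2 fold change -0.22, edgeR adjusted p = 7.95e-20).

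Condensins are ring-shaped ATPase complexes that fold chromatin into loops and so shorten and stiffen chromosomes for division. Smc2 and Smc4 form the ATPase core of both complexes. Condensin I adds Ncapd2, Ncapg and Ncaph and reaches chromosomes once the nuclear envelope has broken down, while condensin II adds Ncapd3, Ncapg2 and Ncaph2 and is also in the nucleus between divisions. Top2a, topoisomerase II alpha, passes DNA strands through each other and separates the tangled sister chromatids. Mki67 encodes Ki-67, which coats mitotic chromosomes and keeps them apart and is the usual mark of proliferating cells. Most ECs of the adult lung are not dividing, and PNX is known to start growth of the remaining lung.

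Promoter sequence is printed for the members with the largest changes after PNX, Top2a and Mki67, and for the members with the smallest, Ncapd3 and Ncaph2. The sequences are from RefSeq on GRCm38.p6 (mm10), 5′ to 3′ on the strand of the gene, and end at the base before the outermost annotated start of the gene. They are the Top2a window chr11:99024200-99024439 (minus strand, 240 bases), the Mki67 window chr7:135716451-135716629 (minus strand, 179 bases), the Ncapd3 window chr9:27029915-27030164 (plus strand, 250 bases) and the Ncaph2 window chr15:89355469-89355718 (plus strand, 250 bases). Capitals mark matches on either strand to CCAAT, to the cell cycle homology region (CHR, searched as TTTGAA or as TTCGAA) or to an E2F motif (searched as TTCCCGC or as TTGGCGC or as TTCGCGC or as TTTGGCG).
Top2a: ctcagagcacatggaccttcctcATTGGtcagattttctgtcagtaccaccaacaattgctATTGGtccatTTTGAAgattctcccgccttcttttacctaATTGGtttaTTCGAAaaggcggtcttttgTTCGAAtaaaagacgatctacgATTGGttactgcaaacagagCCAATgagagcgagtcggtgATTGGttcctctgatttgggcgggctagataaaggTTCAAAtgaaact
Mki67: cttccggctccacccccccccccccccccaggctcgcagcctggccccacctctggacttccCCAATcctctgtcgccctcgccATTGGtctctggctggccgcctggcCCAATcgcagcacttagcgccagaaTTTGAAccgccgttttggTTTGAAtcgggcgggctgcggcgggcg
Ncapd3: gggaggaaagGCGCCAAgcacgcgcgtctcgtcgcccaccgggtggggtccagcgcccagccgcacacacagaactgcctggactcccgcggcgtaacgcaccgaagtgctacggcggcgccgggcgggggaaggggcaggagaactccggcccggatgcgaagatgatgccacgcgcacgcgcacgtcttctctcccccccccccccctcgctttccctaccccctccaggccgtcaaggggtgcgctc
Ncaph2: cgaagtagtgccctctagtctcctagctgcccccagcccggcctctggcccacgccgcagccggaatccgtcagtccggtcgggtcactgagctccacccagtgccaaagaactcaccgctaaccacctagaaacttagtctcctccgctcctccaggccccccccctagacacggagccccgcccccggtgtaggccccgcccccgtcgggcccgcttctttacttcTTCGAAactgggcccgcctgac

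In the full 250 bases before the annotated starts, Top2a held 6 matches to CCAAT and 4 to CHR and none to E2F. Mki67 held 3 to CCAAT, 2 to CHR and 1 to E2F, the last of these in the 71 bases left out above because another transcript starts there. The first Ncapd3 promoter held 1 E2F match and the Ncaph2 promoter 1 CHR match, both without a CCAAT. Promoters were matched for 9 of the 10 members, all but Smc4. CCAAT was found in 5 of the 9 (Top2a, Mki67, Smc2, Ncapd2 and Ncapg), CHR in 8 of the 9 and E2F in 4 of the 9 (Mki67, Ncapd2, Ncapd3 and Ncapg2), and the Ncaph promoter held none of them. Ncapd3 has a second promoter in the table, which holds its only CHR match. Of the 32851 promoters in the RefSeq table, 33.8% held CCAAT, 17.1% CHR, 7.38% E2F and 6.02% both CCAAT and CHR. Both CCAAT and CHR were in 5 of the 9 member promoters. TTTGGCG and TTGGCGC can share bases, as they do in Ncapd2, and a match is a match of letters only.

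The comparison of post-PNX with sham libraries asks how far the genes of chromosome structure differ in lung ECs during lung growth. All 10 members had higher normalized counts in both post-PNX libraries than in both sham libraries. The fold change, however, ran from 8.31-fold for Top2a to 1.17-fold for Ncaph2. The largest fold changes were those of Top2a and Mki67, followed by Ncapg of condensin I, Ncapg2 of condensin II and Ncapd2 of condensin I. Counted with an adjusted p under 0.01 and a fold change above 2 (a log2 fold change above 1), 7 of the 10 members were higher after PNX and 0 lower. The share over all 16208 genes tested was 5.90% higher and 1.66% lower, 7.56% in all. With the adjusted p alone, all 10 members were higher, where 29.3% of the genes tested were higher and 27.8% lower. Both post-PNX libraries lay above both sham libraries in 40.8% of the genes tested. The median log2 fold change of the members was 1.75, beside 0.00 over all genes tested. All 10 members passed the filter on low counts, their lowest count being 225 and their highest 9283.

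**Figure D1:**
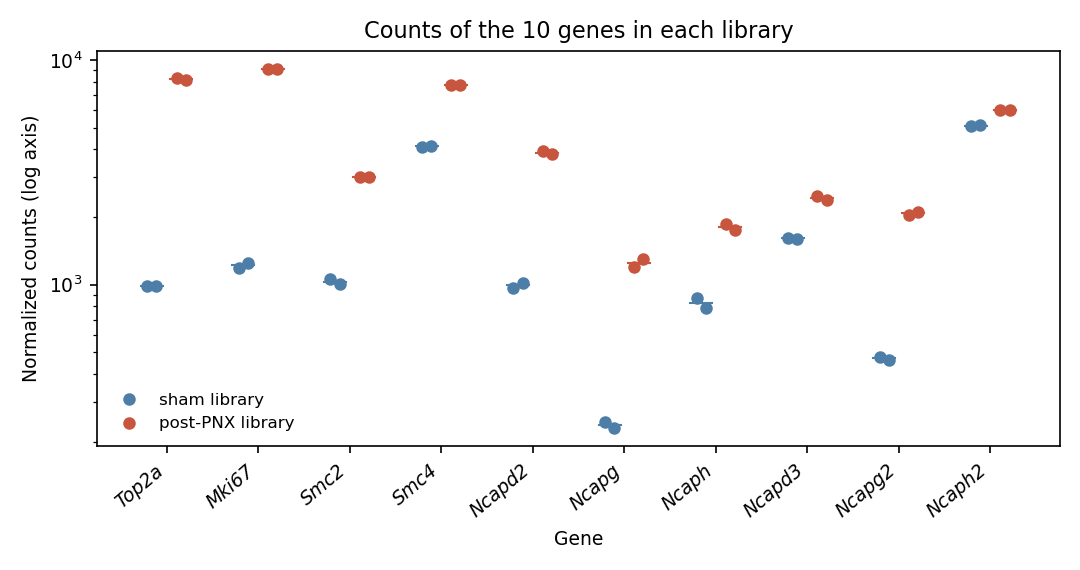
Normalized counts (log axis) of the 10 members in each library, with sham and post-PNX libraries side by side and a bar at each group mean. The points of a group lie close together and no member's groups overlap. On this axis the gap is widest for Top2a (987 to 8197) and narrowest for Ncaph2 (5100 to 5971).

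The markers of other cell types also differed between the groups. Summed over 7 fibroblast markers, the level was 1331 to 1344 CPM in the sham libraries and 4858 to 4880 CPM in the post-PNX libraries, and 5 of the 7 were called higher, that is past both thresholds. Pdgfra (log2 fold change -0.23) and Tcf21 (0.02) of this list did not rise with them. Summed macrophage markers were at 477 to 484 CPM in the sham libraries and 1125 to 1126 CPM after PNX, with 4 of 7 called higher. Mesothelial markers summed to 250 to 253 CPM in sham and 521 to 528 CPM after PNX, with a positive log2 fold change in 6 of 6 and 4 called higher. Smooth muscle and pericyte markers summed to 402 to 407 CPM in sham and 548 to 555 CPM after PNX, with a positive log2 fold change in 7 of 7 and 2 called higher. Other sums were lower after PNX, namely 12 EC markers (11153 to 11285 CPM in sham, 9780 to 9824 CPM after PNX), 7 alveolar epithelial markers (7344 to 7386 CPM, then 4805 to 4824 CPM), T cell markers (63.8 to 64.1 CPM, then 48.1 to 48.4 CPM) and B cell markers (134 CPM, then 74.2 to 77.7 CPM), with no gene of these 4 lists called. Of the 12 EC markers, 2 had a positive log2 fold change, Sox17 (0.19) and Emcn (0.11). The sums of pan-leukocyte markers (1238 CPM in both sham libraries, 1335 to 1348 CPM after PNX), neutrophil markers (217 to 221 CPM, then 242 to 248 CPM) and erythroid markers (150 to 151 CPM, then 162 to 167 CPM) were slightly higher after PNX, with no gene called. Of the pan-leukocyte and neutrophil lists, Ptprc (log2 fold change -0.003), Coro1a (-0.14) and Mmp9 (-0.14) did not rise with them. Hba-a1 and Hba-a2, both in the erythroid sum, had identical counts in every library. No marker was at 0 in all 4 libraries. The part of these cells in the members' values was not tested, and in bulk RNA more cells of a type and more RNA per cell cannot be told apart.

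Top2a stood at 987 normalized counts in each sham library, and at 8282 and 8111 in the libraries after PNX. The mean was 987 ± 0.155 (SD, n = 2) in sham and 8197 ± 120 after PNX. The log2 fold change was 3.05 (SE 0.033, edgeR adjusted p = 3.99e-62). Top2a was thus the member with the largest fold change, ranking 132 among the 16208 genes tested. Its gene lies on the minus strand of mm10 at chr11:98992947-99024199, with 36 exons and a transcript of 5217 bases.

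Mki67 stood at 1192 and 1243 normalized counts in sham, and at 9122 and 9129 after PNX. The groups were 1217 ± 35.7 and 9125 ± 4.89 (SD, n = 2 each). The log2 fold change was 2.91 (SE 0.031, edgeR adjusted p = 3.16e-62), or 7.50-fold, and ranked 166. Mki67 lies on the minus strand at chr7:135689784-135716450, with 14 exons in a transcript of 10075 bases, the longest of the members. The FPKM ratio of Top2a to Mki67 was 1.60 and 1.53 in sham and 1.75 and 1.72 after PNX. This ratio was higher after PNX without overlap, by 0.15 on the log2 scale, and an exact permutation test over 2 against 2 libraries (two-sided) gave p = 0.333, the smallest it allows.

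The core subunits of both condensins differed from each other. Smc2 had 1056 and 1008 normalized counts in sham and 3011 and 3022 after PNX, a log2 fold change of 1.55 (SE 0.039, edgeR adjusted p = 1.20e-41) or 2.92-fold. Smc4 had 4104 and 4149 in sham and 7746 and 7732 after PNX, a log2 fold change of 0.91 (SE 0.025, edgeR adjusted p = 1.42e-39) or 1.88-fold. Smc4 was therefore past the threshold of p and below that of the fold change. When libraries were scaled to the 12 EC markers, which moved the median of all genes by 0.20 on the log2 scale, its log2 fold change was 1.11 and it passed both. Smc2 and Smc4 pair one to one in the complex, but their transcript levels did not keep 1 ratio. The FPKM ratio of Smc4 to Smc2 was 5.06 and 5.36 in sham and 3.35 and 3.34 after PNX. It was lower after PNX by a log2 change of -0.64 (exact permutation p = 0.333, the smallest possible).

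All 3 subunits of condensin I passed both thresholds. Ncapg, a HEAT repeat subunit, had the lowest counts of all members, 246 and 229 in sham and 1202 and 1307 after PNX. Its log2 fold change of 2.40 (SE 0.068, edgeR adjusted p = 4.74e-39) was a 5.26-fold rise. Ncapd2, the other HEAT repeat subunit, had 968 and 1018 normalized counts in sham and 3927 and 3797 after PNX (log2 fold change 1.96, SE 0.038, edgeR adjusted p = 4.63e-48). Ncaph is the kleisin, the subunit that closes the ring between the SMC heads. It had 871 and 788 normalized counts in sham and 1854 and 1743 after PNX, with a log2 fold change of 1.12 (SE 0.048, edgeR adjusted p = 1.30e-29) or 2.17-fold. Ncaph was the condensin I subunit nearest to the fold threshold, and tested against a log2 fold change of 1 with glmTreat its adjusted p was 0.0589. Members just inside and just outside the fold threshold were thus Ncaph at 2.17-fold and Smc4 at 1.88-fold.

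Of the 3 subunits of condensin II, 1 passed both thresholds. Ncapg2 had 477 and 465 normalized counts in sham and 2049 and 2100 after PNX, a log2 fold change of 2.14 (SE 0.051, edgeR adjusted p = 2.34e-43) or 4.40-fold. Ncapd3 had 1615 and 1605 in sham and 2476 and 2369 after PNX, which is 1.51-fold (log2 fold change 0.59, SE 0.038, edgeR adjusted p = 2.12e-21). Ncaph2, the kleisin of condensin II, had 5062 and 5138 in sham and 5986 and 5957 after PNX, a rise of 1.17-fold (log2 fold change 0.23, SE 0.026, edgeR adjusted p = 8.73e-12). Within 1 complex the fold changes therefore spanned 1.17-fold to 4.40-fold. The means of Ncaph2, 5100 ± 53.3 and 5971 ± 21.0 (SD, n = 2), differed by more than the spread of its libraries, and its fold change ranked 4090 among the genes tested.

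**Figure D2:**
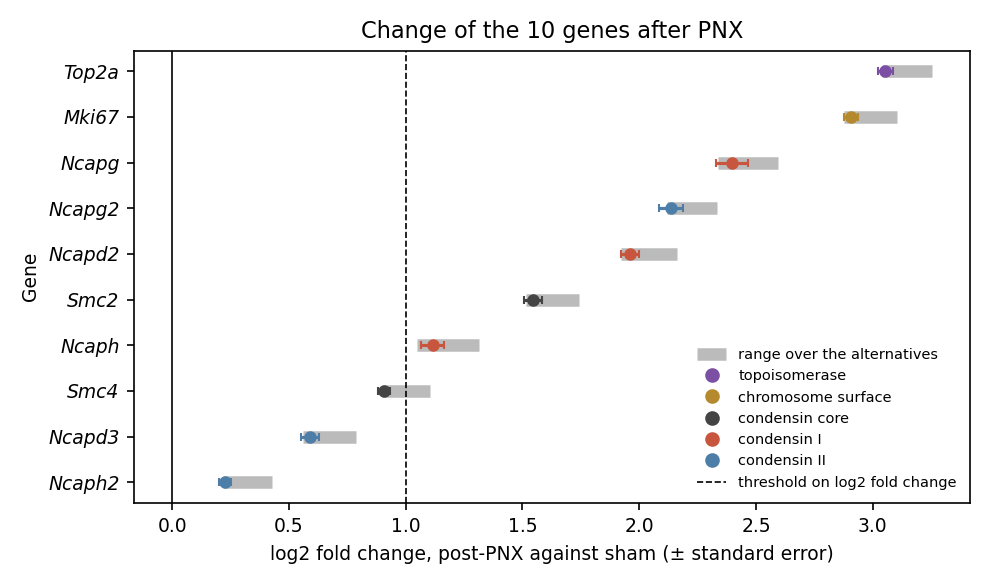
Fitted log2 fold change of each member (post-PNX over sham), coloured by role, with error bars of 1 SE, a grey bar for the range over the alternative settings and a dashed line at a log2 fold change of 1. The upper end of each grey bar is the value under EC marker scaling. Top2a (3.05) and Mki67 (2.91) lie at the top, Ncapg2 (2.14) lies between Ncapg (2.40) and Ncapd2 (1.96), and Smc4 (0.91), Ncapd3 (0.59) and Ncaph2 (0.23) lie below the line.

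Ordered by fold change, the members ran Top2a, Mki67, Ncapg, Ncapg2, Ncapd2, Smc2, Ncaph, Smc4, Ncapd3 and Ncaph2. For each pair of neighbours in this order the ratio of the 2 genes within a library did not overlap between the groups. The order was taken from these same libraries, so this describes the order and is not a test of it. The smallest steps were between Top2a and Mki67 (0.15 on the log2 scale) and between Ncapg2 and Ncapd2 (0.18). Summed, the members had 16577 and 16629 normalized counts in sham and 45654 and 45266 after PNX. Their share of all counts was 0.0359% and 0.0360% in sham, against 0.0993% and 0.0982% after PNX.

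Levels between genes were compared per length, as FPKM (fragments per kilobase of transcript, scaled to the library total). In sham libraries the condensin II kleisin Ncaph2 was the highest member, at 20.6 and 20.9 FPKM, followed by Smc4 at 13.7 and 13.8 FPKM. The other members were far below these. Ncaph stood at 4.39 and 3.97 FPKM and Ncapd3 at 3.99 and 3.96 FPKM, and the libraries of these overlapped. Ncapd2 (2.91 and 3.07 FPKM), Smc2 (2.70 and 2.57 FPKM), Top2a (2.57 in both) and Mki67 (1.61 and 1.68 FPKM) came next. The step from Smc2 to Top2a, 0.0661 FPKM, was smaller than the SD of Smc2 (0.0859 FPKM). Ncapg2 (0.982 and 0.956 FPKM) and Ncapg (0.902 and 0.843 FPKM) were the lowest.

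The order was different in post-PNX libraries. Smc4 was the highest member, at 26.0 and 25.8 FPKM, then Ncaph2 at 24.5 and 24.3 FPKM and Top2a at 21.7 and 21.2 FPKM. Top2a thus moved from the seventh place to the third. Mki67 (12.4 FPKM in both libraries) lay just above Ncapd2 (11.9 and 11.5 FPKM). Ncaph (9.42 and 8.83 FPKM), Smc2 (7.74 and 7.75 FPKM) and Ncapd3 (6.16 and 5.87 FPKM) followed, and Ncapg (4.45 and 4.82 FPKM) and Ncapg2 (4.24 and 4.34 FPKM) were again lowest. No neighbours in this order overlapped. The difference in level, post-PNX minus sham, was largest for Top2a (18.9 FPKM) and smallest for Ncapd3 (2.04 FPKM). By difference Smc4 came second at 12.2 FPKM, although 7 members had a larger fold change.

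**Figure D3:**
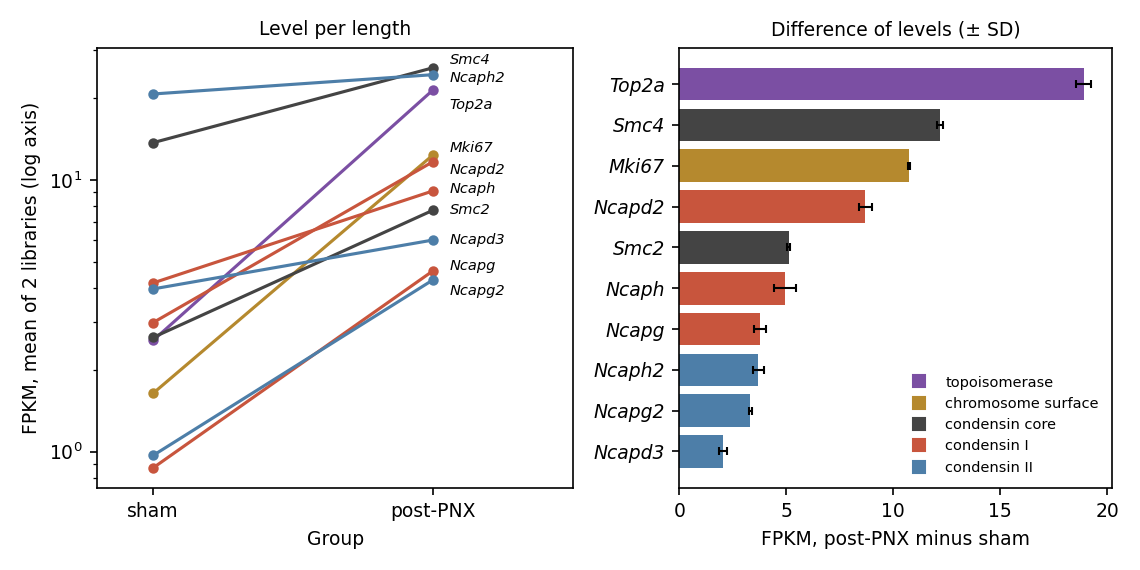
Left, mean FPKM of each member in the sham and post-PNX groups (log axis, n = 2 libraries each). Right, the difference of the means, with error bars that are the root of the summed squared SDs of the groups. The lines of Ncaph2 (20.7 to 24.4) and Ncapd3 (3.97 to 6.02) are the flattest, and the largest differences are those of Top2a (18.9), Smc4 (12.2) and Mki67 (10.7).

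These levels depend on the transcript lengths behind the deposited FPKM. For Ncapg2 that length was 6604 bases, while the GENCODE M21 transcript matched to the same RefSeq entry has 4684 exonic bases. For the other members the choice of length moved the level by a factor of 0.946 to 1.01. With the GENCODE lengths, Ncapg2 was at 1.38 and 1.35 FPKM in sham and 5.98 and 6.12 FPKM after PNX, which put it above Ncapg and beside Ncapd3 (6.16 and 5.88 FPKM). With these lengths Ncaph2 (24.8 and 24.6 FPKM) also lay above Smc4 (24.6 and 24.4 FPKM) after PNX. Fold changes between groups do not depend on length.

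The transcripts of condensin I and condensin II subunits were compared as a ratio within each library, where scaling between libraries cancels. A ratio of transcripts does not give the amounts of the complexes. Condensin I subunits summed to 0.321 and 0.305 of the condensin II subunits in sham and to 0.738 and 0.727 after PNX (FPKM, 0.313 ± 0.0111 and 0.733 ± 0.00738, SD, n = 2). That is a log2 change of 1.23, with both post-PNX libraries above both sham libraries and an exact permutation p = 0.333, the smallest that 2 against 2 libraries allow. The sum of condensin II was mostly Ncaph2. Over Ncapd3 and Ncapg2 alone, condensin I stood at 1.65 and 1.60 in sham and 2.48 and 2.46 after PNX, a log2 change of 0.60. Ncaph is still in the upper sum of this ratio, without its partner Ncaph2. With GENCODE lengths the ratio to all of condensin II was 0.310 and 0.295 in sham and 0.689 and 0.678 after PNX.

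The ratio was also taken for each pair of subunits of matching role. Ncapd2 over Ncapd3 was 0.730 and 0.774 in sham and 1.93 and 1.95 after PNX, a log2 change of 1.37. The kleisin ratio, Ncaph over Ncaph2, was 0.213 and 0.190 in sham and 0.384 and 0.363 after PNX, a log2 change of 0.89. Ncapg over Ncapg2 changed least, from 0.918 and 0.881 to 1.05 and 1.11, a log2 change of 0.26. Each ratio was higher in both post-PNX libraries, and each exact permutation test gave p = 0.333. With GENCODE lengths, Ncapg over Ncapg2 was 0.650 and 0.624 in sham and 0.742 and 0.787 after PNX. Ncapg thus stayed below Ncapg2 with those lengths. Top2a over Smc2 was 0.953 and 0.998 in sham and 2.81 and 2.74 after PNX.

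**Figure D4:**
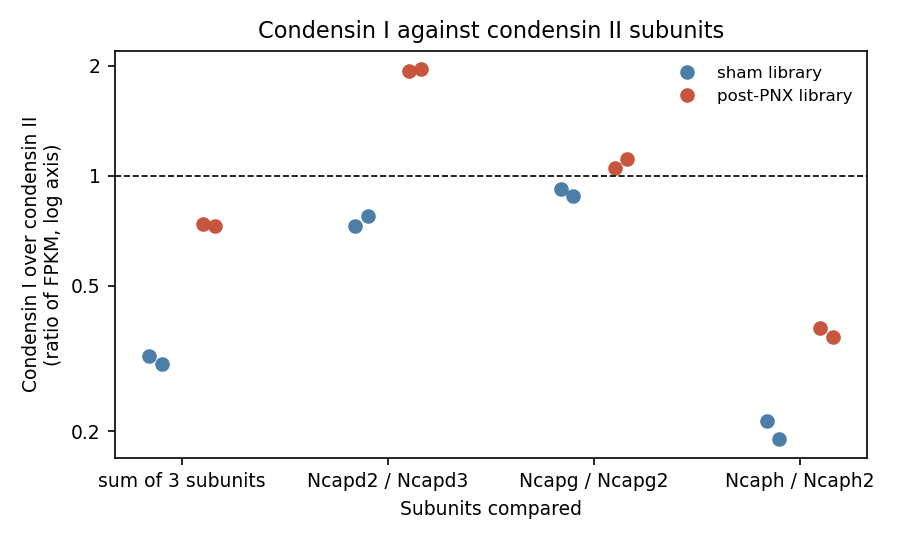
Ratio of deposited FPKM (log axis) in each library for condensin I over condensin II and for single pairs of subunits, sham and post-PNX libraries side by side, with a dashed line at 1. The groups do not overlap for any ratio shown. The Ncapg over Ncapg2 points lie closest together (0.900 and 1.08 in the mean), while Ncapd2 over Ncapd3 moves from 0.752 to 1.94. With GENCODE lengths, which are not drawn, Ncapg over Ncapg2 was 0.650 and 0.624 in sham and 0.742 and 0.787 after PNX.

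Reads at some members could come from a neighbour. Exons of Ncapg share 20.8% of their bases with Lcorl on the opposite strand, and exons of Ncaph2 share 25.1% with Sco2 and Tymp. The library kit was stranded, but whether counting used the strand is not given in the sources used here, so such reads may not have been told apart. Lcorl went from 524 ± 25.5 to 748 ± 13.2 normalized counts (SD, n = 2; log2 fold change 0.51, edgeR adjusted p = 1.96e-10). Sco2 was at 1095 ± 24.1 in sham and 1128 ± 33.7 after PNX (adjusted p = 0.452) and Tymp at 1137 ± 25.6 and 1040 ± 26.5 (adjusted p = 0.0178). The other 8 members shared no exonic base with another gene. Ncaph2 was also the only member with several transcripts, 4 in all, whose counts differed by at most 9 within a library.

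Genes related to the members with roles beyond mitosis were compared in the same way. Top2b, the gene of topoisomerase II beta, was at 9742 and 9251 normalized counts in sham and at 8806 and 8829 after PNX. Its log2 fold change was -0.11 (SE 0.023, edgeR adjusted p = 4.26e-05), though it turned to 0.09 when libraries were scaled to EC markers. Of the 10 genes of other topoisomerases and their partners, Top2b included, 1 was higher past both thresholds and 0 lower, with a median log2 fold change of 0.12. By adjusted p alone 4 were higher and 3 lower, and 7 and 0 under EC marker scaling. That scaling put the median of all genes tested at 0.20. The share of all genes with an adjusted p under 0.01 under it is not given here. The gene past both thresholds was Rmi2, a partner of topoisomerase III alpha, with 21.0 ± 3.68 normalized counts in sham and 110 ± 9.77 after PNX (log2 fold change 2.37). Topbp1, a replication checkpoint factor, had a log2 fold change of 0.67 and Top3b one of -0.24, which was -0.04 under EC marker scaling (edgeR adjusted p = 0.317). Of the 9 genes of the SMC5/6 complex, a relative of condensin that serves DNA repair, 0 passed both thresholds in edgeR and in DESeq2. By adjusted p alone 3 were higher and 1 lower (Slf2, log2 fold change -0.18, which turned to 0.02 under EC marker scaling), and their median was 0.03. Under EC marker scaling 7 were higher and 0 lower, with a median of 0.23, near the 0.20 of all genes tested. With the DESeq2 Wald test 0 were higher and 1 lower. The largest values were 0.21 for Nsmce2, 0.19 for Nsmce1 and -0.25 for Eid3 (adjusted p = 0.640).

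Genes of cohesin, the ring that holds sister chromatids together, moved in both directions. Of 17 genes of its core, loading, protection and release, 5 were higher past both thresholds and 0 lower, and the median log2 fold change was -0.01. The 5 were Sgo1 (3.07) and Sgo2a (3.01), which protect cohesin at centromeres, Esco2 (3.03) and Cdca5 (2.71), which establish and lock cohesion in S phase, and Espl1 (2.52), the protease that cuts the ring. The core subunits Smc1a, Smc3 and Rad21 had log2 fold changes of 0.12, 0.11 and 0.29. Nipbl and Mau2, the loader, were lower at -0.29 and -0.39, while Stag1 (-0.10), Stag2 (-0.19) and Wapl (-0.13) were lower here and above 0 under EC marker scaling. Pttg1, the securin that holds Espl1 inactive until anaphase, was lower at -0.49 (1891 ± 18.8 to 1347 ± 33.1 normalized counts), unlike the 5 genes that rose. By adjusted p alone the list held 8 higher and 8 lower genes, and 10 and 4 under EC marker scaling. The share of all genes called by adjusted p under that scaling is not given here.

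Of the 4 meiotic cohesin genes, Smc1b and Rad21l were below the filter. Stag3 was called higher, from 23.5 ± 11.5 to 50.3 ± 4.47 normalized counts (log2 fold change 1.12, edgeR adjusted p = 2.67e-04), but the call was lost without the first sham library. Rec8 had a log2 fold change of -0.55 (edgeR adjusted p = 8.07e-04).

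Of 22 genes for kinases and other partners of condensed chromosomes, 10 were higher past both thresholds and 0 lower, with a median log2 fold change of 0.42. They included Cdk1 (3.41) and its cyclin Ccnb1 (3.40), which phosphorylate condensin at mitotic entry, and Plk1 (3.06). All 4 genes of the chromosomal passenger complex rose, Birc5 (3.34), Cdca8 (3.19), Aurkb (3.08) and Incenp (1.49). The chromosome motors Kif22 (3.37) and Kif4 (2.16) and the Ki-67 partner Cdca2 (2.96) made up the rest. Mcph1, which restrains condensin II, had 336 ± 9.96 normalized counts in sham and 453 ± 29.9 after PNX (log2 fold change 0.43). Akap8 (-0.46) and Phf8 (-0.25), which have been linked to condensin on chromatin, were lower. Under EC marker scaling Akap8 was at -0.26 and Phf8 at -0.05 (edgeR adjusted p = 0.242 for Phf8). The remaining genes, for nucleolar and chromatin proteins such as Nifk (0.16) and Npm1 (0.41), were higher by adjusted p alone.

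Beside them stood the general cell cycle genes. All 15 mitotic genes were higher past both thresholds (median 2.90), among them Cenpf (4.06), Prc1 (3.68), Ttk (3.56), Cdc20 (3.25), Tpx2 (3.23), Ccnb2 (3.23), Nusap1 (2.99), Kif11 (2.90), Cenpe (2.79), Bub1 (2.68), Aurka (2.68) and Ccna2 (2.65). Of 15 S phase genes 13 were (median 1.44), led by Rrm2 (2.60), Cdc6 (2.59) and Cdc45 (2.09), while Mcm4 (0.94) and Pcna (0.73) were higher by adjusted p alone. Top2a and Mki67 lay within the range of the mitotic list, which ran from 1.96 to 4.06. Smc2, Ncaph, Smc4, Ncapd3 and Ncaph2 lay below its lowest value. Of the members, Ncapg, Ncapg2, Ncapd2, Smc2, Ncaph and Smc4 lay within the range of the S phase list (0.73 to 2.60), Top2a and Mki67 above it and Ncapd3 and Ncaph2 below it.

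**Figure D5:**
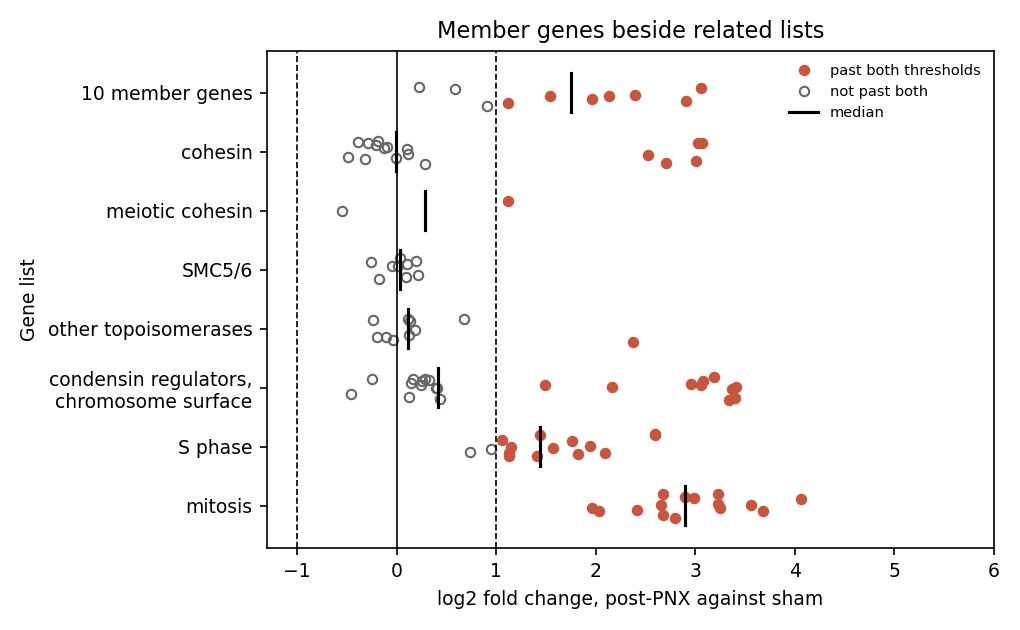
Log2 fold change (post-PNX over sham) of every tested gene of the members and of 7 related lists, each point 1 gene, filled where past both thresholds, with a bar at the median and dashed lines at log2 fold changes of -1 and 1. The members spread from 0.23 to 3.05, and their median (1.75) lies between those of the SMC5/6 genes (0.03) and the mitotic genes (2.90).

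The genes whose counts followed Mki67 and Top2a most closely were found by the root mean square difference of log2 normalized counts, centred on the sham mean, over the 4 libraries and 13402 genes. With only 2 groups this measure is close to a match of the size of the change. Nearest to Mki67 were Slfn9 (0.012), C3ar1 (0.017), Dlgap5 (0.035), C1qc (0.043) and Cdca2 (0.044). Dlgap5 and Cdca2 are mitotic genes, while C3ar1 and C1qc are genes of the complement system that macrophages express. Nearest to Top2a were Sgol1, the older symbol of Sgo1 (0.018), the kinase Plk1 (0.019), the centriole gene Stil (0.026), the chemokine gene Cxcl1 (0.040) and the DNA glycosylase gene Neil3 (0.042).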

How the data were processed

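Each library came from CD31-bead isolated lung ECs pooled from 2 mice. Libraries were made with the TruSeq Stranded mRNA kit, sequenced as paired ends on a NextSeq500 and aligned to mm10, with STAR named in the submitters' processing notes. The counting program is not given in the sources used here. For each of 33068 RefSeq transcripts the authors deposited raw counts and, beside them, FPKM and TPM values. The deposited FPKM is scaled to the total over all transcripts (65763553 to 81282871), and the length it implies was a whole number within 0.01 for 100% of 25842 transcripts with counts in every library. The TPM values were not used. Reads shared by transcripts were counted once per transcript, so 1 transcript was taken per symbol. The deposited counts were fitted with edgeR 4.0.16 under R 4.3.3 (TMM factors 0.9985 to 1.0026, filterByExpr leaving 16208 genes, quasi-likelihood F test without covariates, Benjamini-Hochberg adjustment over all genes tested). A gene was called past both thresholds, those of the study's methods, with an absolute log2 fold change over 1 and an adjusted p under 0.01. DESeq2 1.42.0 and glmTreat were alternatives. The fit was tested on simulated data first. Ratios of FPKM were compared by two-sided exact permutation tests.

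Within a group, the libraries differed by little more than counting error (mean chi-square per gene 1.74 in sham and 1.51 after PNX, 128 and 114 between groups). The p-values rest on this spread between 2 libraries a group, which is close to counting error, and do not measure variation between single mice. The deviations of libraries with the same replicate number had a correlation of 0.024 over 13402 genes, and the pools are of different mice, so the numbers do not pair them. Members and related lists were chosen with earlier results of these data known. The genes named are all members, list genes past both thresholds (of the mitotic and S phase lists, a part), the 3 largest changes of each list, the 5 genes nearest to Mki67 and to Top2a among those averaging 100 normalized counts or more, and label checks. Other list genes named, such as Top2b, the cohesin core and Pttg1, were chosen after their values were seen. Ly6g, Trac, Ighm and Muc16 were among the markers and not matched in the tables. Positions are from RefSeq (GRCm38.p6) and exon overlaps from GENCODE M21.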

Additional observations from a re-analysis of the deposited data

How the results depend on the processing

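The 7 members past both thresholds stayed 7 with DESeq2 size factors, library size alone, no filter, a mean of at least 50 counts, the DESeq2 Wald test, counts summed over transcripts and any 1 library left out. They were 8, with Smc4, under endothelial marker scaling and 6, without Ncaph, under glmTreat. The glmTreat call is its adjusted p under 0.01 alone, so the members counted by adjusted p are by definition the same 6. The members' median log2 fold change was 1.95 under endothelial marker scaling and 1.74 to 1.76 with 1 library left out. The meiotic cohesin count was 0 with a mean of at least 50 counts, the DESeq2 Wald test and glmTreat, and 0 to 1 with 1 library left out (0 without sham replicate 1). With the replicate block, 7 members passed and 957 genes were higher and 272 lower, beside 957 and 269 without it, and no call of a member or list count changed. Of all calls 78.1% were higher, but 1220 higher and 104 lower (92.1% higher) under endothelial marker scaling and 604 and 39 (93.9% higher) under glmTreat. The lower calls numbered 160 with a mean of at least 50 counts. The log2 change of the condensin I to II ratio was 1.23. Over its alternatives it was 0.89 (kleisins alone) to 1.37 (FPKM summed over transcripts). The value of 1.37 counts nearly the same reads of Ncaph2 in each of its 4 transcripts. With annotated exon lengths, an alternative chosen after seeing the data, the change was 1.18. With all 3 condensin I subunits over Ncapd3 and Ncapg2 alone, the change was 0.60. That ratio keeps Ncaph without its partner Ncaph2, so it does not show how far the change rests on Ncaph2. For Ncapg over Ncapg2 the change was 0.26. The cause of these moves was not tested. Of the other recomputed values, 131 for the main results were scored as unchanged, by rules that allowed some movement, such as the counts of 8 and 6 members above. For single members, 128 kept direction and side of the threshold, and none reversed. Single genes of the related lists were not scored, and some, such as Top2b, changed sign under endothelial marker scaling. Depth limits only the lowest genes, since 3 counts are 0.0589 to 0.0725 CPM, and with 2 libraries a group no exact test can go below p = 0.333.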
